A study of Mus musculus with 6 samples.

Results

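Guanylate-binding proteins and immunity-related GTPases are 2 families of large, interferon-inducible GTP-hydrolysing proteins, encoded in the mouse by runs of neighbouring Gbp and Irg genes. Of these, 10 genes (6 Gbp and 4 Irg genes) were followed here, out of 20660 genes with a symbol on the array. They were taken by name, together with every non-control probe whose RefSeq accession maps to them, which gave 14 probes. The genes had been chosen with their differences between SB431542 and DMSO known, so those differences are given as a description with no p-value.

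The samples were J1 mouse embryonic stem cells, a line of strain 129S4/SvJae from the inner cell mass. For the SB431542 group (3 arrays) the cells were exposed over 24 h to SB431542 at 3 µM, an inhibitor of the type I receptors for Nodal, activin and TGF-beta (ALK4, ALK5 and ALK7). For the DMSO group (3 arrays) they had the solvent over the same time. All cells were adapted to gelatin and grew in medium with serum replacement and 1000 U/mL LIF, so that both groups come from 1 cell line. Nothing in the labels says that replicates were separate cultures, so errors and p-values cover the spread among these arrays alone, and that spread may be technical.

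In mouse cells these proteins are switched on mainly by interferon gamma, through transcription factors that include IRF1. Guanylate-binding proteins are related to dynamins and assemble on the vacuoles and membranes of intracellular bacteria and parasites. Immunity-related GTPases divide into effectors such as Tgtp2, which load onto pathogen vacuoles and disrupt them, and the regulators Irgm1, Irgm2 and Igtp (also called Irgm3), which sit on the cell's own membranes and hold the effectors inactive there. Pluripotent stem cells are known for a weak response to interferons.

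Interferon-inducible genes often carry an interferon-stimulated response element, bound by IRF factors, or a gamma-activated site. Both were searched in the promoter windows of 300 bases (250 before and 50 after the annotated start) that RefSeq's assembly GRCm38.p6 gave for 7 of the 10 genes, namely Gbp2, Gbp2b, Gbp3, Irgm1, Irgm2, Igtp and Tgtp2. The first was searched as GAAA, any 2 bases and GAAA, and the second as TTC, any 3 bases and GAA, which reads alike on both strands. Both strands were searched, and in the members no match of one element overlapped one of the other. The windows of 4 genes are shown to pair unlike members. Gbp2 and Irgm1 were far lower with SB431542, while Irgm2 was somewhat higher and Igtp differed little. Capitals mark the matches, and each window runs 5′ to 3′ on the gene's strand.
Gbp2, chr3:142620413-142620712, plus strand: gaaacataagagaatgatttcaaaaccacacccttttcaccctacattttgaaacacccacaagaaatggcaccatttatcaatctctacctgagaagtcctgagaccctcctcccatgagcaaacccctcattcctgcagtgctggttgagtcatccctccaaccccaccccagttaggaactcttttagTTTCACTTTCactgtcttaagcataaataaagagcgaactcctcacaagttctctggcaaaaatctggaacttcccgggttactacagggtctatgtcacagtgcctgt
Irgm1, chr11:48871371-48871670, minus strand: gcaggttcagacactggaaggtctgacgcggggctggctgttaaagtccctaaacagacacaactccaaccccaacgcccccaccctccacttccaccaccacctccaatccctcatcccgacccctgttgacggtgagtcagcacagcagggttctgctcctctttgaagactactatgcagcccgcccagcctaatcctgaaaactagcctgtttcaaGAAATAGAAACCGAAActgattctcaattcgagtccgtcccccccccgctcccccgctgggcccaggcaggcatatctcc
Irgm2, chr11:58214727-58215026, plus strand: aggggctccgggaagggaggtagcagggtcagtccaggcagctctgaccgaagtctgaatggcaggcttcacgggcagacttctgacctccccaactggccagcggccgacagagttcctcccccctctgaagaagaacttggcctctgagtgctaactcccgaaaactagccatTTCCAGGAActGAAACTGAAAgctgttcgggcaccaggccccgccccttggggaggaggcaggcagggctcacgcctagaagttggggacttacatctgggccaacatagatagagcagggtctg
Igtp, chr11:58199306-58199605, plus strand: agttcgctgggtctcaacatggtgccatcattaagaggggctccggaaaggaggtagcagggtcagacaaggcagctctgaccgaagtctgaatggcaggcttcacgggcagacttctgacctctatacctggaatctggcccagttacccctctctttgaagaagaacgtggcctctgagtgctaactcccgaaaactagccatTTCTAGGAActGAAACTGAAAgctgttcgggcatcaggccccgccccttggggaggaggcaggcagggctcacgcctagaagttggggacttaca

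The response element core was found in 7 of the 8 windows (Gbp3 has 2 windows, and its second held none). Over all 32851 windows in the table, 3.44% held it. The core was TTTCACTTTC in both Gbp2 and Gbp2b, read from the opposite strand. It was GAAACCGAAA in Tgtp2 and in an overlapping match of Irgm1, and GAAACTGAAA in both Irgm2 and Igtp. GAAACTGAAA was also held by the first window of Gbp3, on the opposite strand (as TTTCAGTTTC) and overlapping a second match, TTTCTATTTC. The core began 59 bases before the start in Gbp2, 137 in Gbp2b and 70 in Tgtp2. The gamma-activated site was found in 3 windows, against 8.30% of all windows. These were Irgm2 and Tgtp2, both with TTCCAGGAA, and Igtp with TTCTAGGAA, each lying just upstream of the response element. The Irgm2 and Igtp windows were alike, with 68.1% identical bases over 270 compared at the best shift without gaps. A match describes the letters of the window and does not show binding. Among 428 other genes tested whose window held the core, 38 fell and 38 rose with SB431542 (8.88% each, by limma with Benjamini-Hochberg adjustment). Of all 12434 non-member genes tested with a window, those 428 included, 7.39% fell and 5.85% rose.

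**Figure D1:**
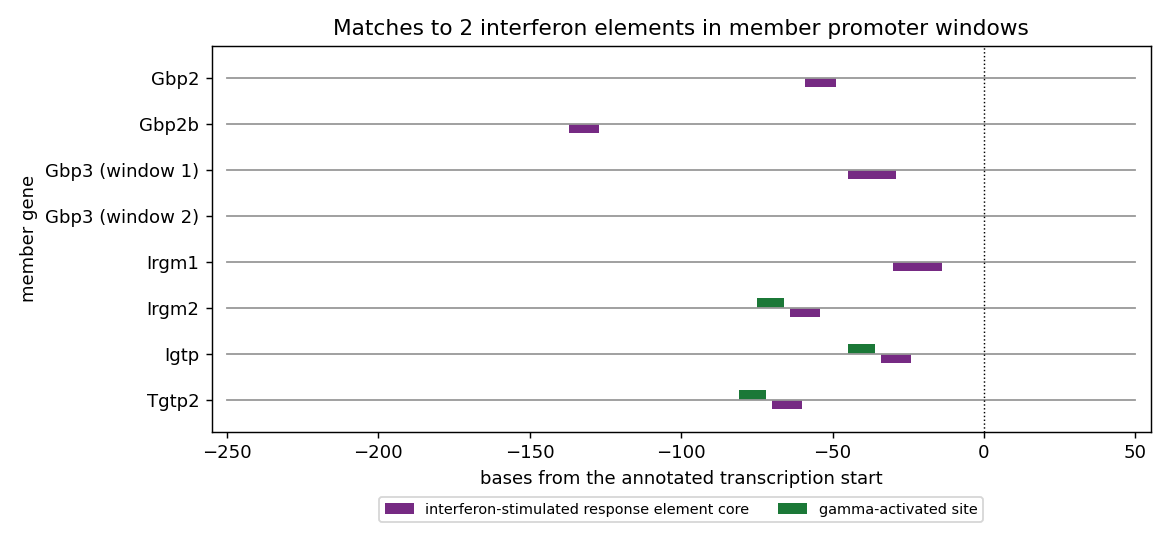
Position of matches to the interferon-stimulated response element core (purple) and the gamma-activated site (green), in bases from the annotated start (x axis), in the 8 promoter windows of 7 member genes (y axis). Purple matches lie in every window but the second one of Gbp3, and green ones in those of Irgm2, Igtp and Tgtp2.

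Signals are given as the processed spot intensity after every array was scaled to the same 75th percentile, in arbitrary units that are comparable between arrays for one probe but not between probes. Differences are means of log2 values, SB431542 minus DMSO, with the standard error (SE) of a limma fit to all probes. The dimmest probe that still counted as well above background gave 8.60 to 10.3 units, depending on the array. A bulk array cannot tell fewer expressing cells from less RNA per cell. Arrays correlated at 0.994 to 0.996 within SB431542, at 0.997 within DMSO and at 0.990 to 0.993 between the groups. SB431542 replicate 3 was the only array on slide 2, with its own scan. As a check of the treatment, Lefty1, a feedback target of Nodal, had a log2 difference of -9.43 ± 0.20 with 2 of the 3 SB431542 arrays above background. All 8 embryonic stem cell markers were measured. Tfcp2l1 rose by 0.43 ± 0.08 (limma adjusted p = 0.0217) and Dppa5a fell by 0.49 ± 0.07 (adjusted p = 0.0102), while the defining markers Pou5f1 (-0.29 ± 0.14), Sox2 (0.03 ± 0.06) and Nanog (-0.02 ± 0.07) did not pass the test. The summed signal of the 8 ran from 215537 to 241094 units with SB431542 and from 280889 to 293724 with DMSO, without overlap, and its part in the differences of the members was not tested.

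With SB431542, 5 of the 10 genes had a probe at least 2-fold lower with no overlap between the groups, namely Gbp2, Gbp2b, Gbp3, Irgm1 and Tgtp2. The other 5, Gbp4, Gbp6, Gbp9, Irgm2 and Igtp, had none. Of the 14 probes, 12 exceeded background clearly on 3 or more of the 6 arrays and entered the fit, and 7 of these were at least 2-fold lower without overlap. Over all 36183 probes tested 1.39% were. Since the genes were chosen on this contrast, nothing is read from that ratio. Both Gbp2b probes and one Irgm1 probe passed the filter only through the DMSO arrays, so a lower value was the only one they could show. The Gbp3 probe, well above background on 1 SB431542 array, also needed the DMSO arrays to pass it. In all, the groups did not overlap for 8 member probes that were lower and 2 that were higher, against 17.1% and 17.7% of all probes. By limma's adjusted threshold 10.8% of all probes passed, 6.49% lower and 4.31% higher. Of the 7 probes, 2 were at least 2-fold lower without overlap under normexp background correction with an offset of 50, which shrinks differences of dim probes.

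**Figure D2:**
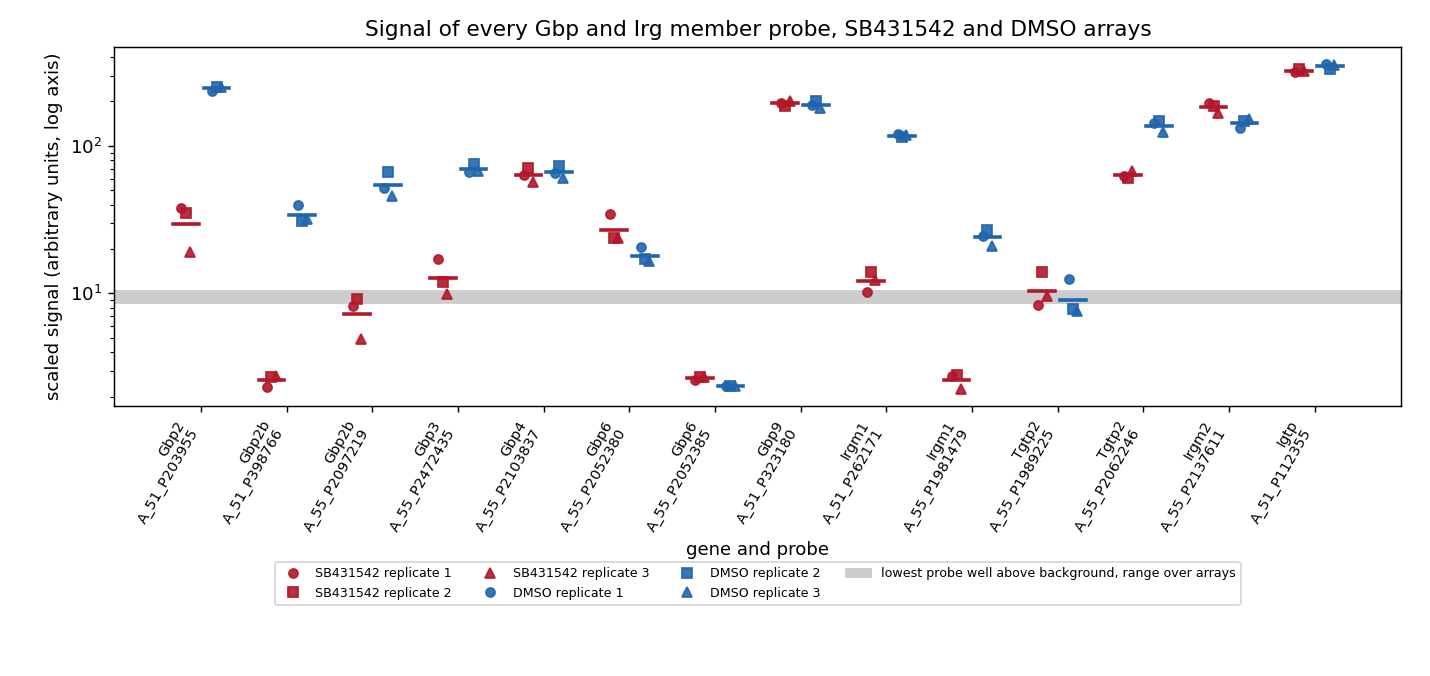
Scaled signal (y axis, log scale, arbitrary units) of every member probe (x axis) on the 3 SB431542 arrays (red) and the 3 DMSO arrays (blue), with bars at the mean of log values and a grey band for the lowest probe well above background. The SB431542 points of Gbp2, Gbp2b, Gbp3 and Irgm1 lie far below those of DMSO, and those of Gbp4 and Gbp9 among them.

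The 3 member genes on chromosome 3, Gbp2, Gbp2b and Gbp3, were all lower. Gbp2 encodes a prenylated guanylate-binding protein that gathers on the vacuoles of Toxoplasma in mouse cells. Its probe gave 37.7, 35.3 and 19.0 units on the SB431542 arrays, against 235, 251 and 250 units on the DMSO arrays. The SB431542 values lay far below all DMSO values, and SB431542 replicate 3 was the lowest. The log2 difference was -3.06 ± 0.27 (SE, 3 arrays per group), or 8.36-fold lower. It was -2.75 without SB431542 replicate 3 and -1.75 under normexp. Among the 33207 probes well above background on all 6 arrays, that of Gbp2 ranked 10 from the most lowered. Member probes in that set ranked from 9 (Irgm1) to 32552 (Gbp6). Since the genes were chosen on this contrast, nothing is read from these ranks.

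Gbp2b, the gene formerly named Gbp1, was measured by 2 probes. The first, A_51_P398766, gave 2.32, 2.73 and 2.75 units with SB431542, against 39.6, 30.9 and 31.9 units with DMSO. The second, A_55_P2097219, gave 8.27, 9.14 and 4.94 units with SB431542, against 51.6, 66.9 and 45.7 units with DMSO. Neither probe was well above background on any SB431542 array, and both were on all 3 DMSO arrays, so the difference has only a bound. For the bound, the DMSO mean was divided by an SB431542 mean in which any array where the probe fell short of the dimmest detected probe was raised to that probe's signal. Taken this way, Gbp2b was at least 3.50-fold lower by the first probe and at least 5.58-fold lower by the second. These bounds are approximate and hold for the processed signal only. A probe brighter than the dimmest detected one was not always called well above background. Under normexp the log2 differences were smaller, -0.60 and -0.76.

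Gbp3, another guanylate-binding protein gene of this run, gave 17.0, 12.0 and 9.96 units with SB431542, against 66.1, 75.4 and 67.5 units with DMSO. The groups did not overlap. The log2 difference was -2.46 ± 0.20, but only 1 of the 3 SB431542 arrays measured the probe well above background, so its size is approximate. The difference was -2.28 without SB431542 replicate 3 and -0.84 under normexp.

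Among the members on chromosome 5, Gbp4 and Gbp9 differed little and Gbp6 was higher. Gbp4 gave 64.0, 70.4 and 56.7 units with SB431542, against 65.3, 73.4 and 60.3 units with DMSO, a log2 difference of -0.06 ± 0.11. Gbp9 gave 196, 187 and 201 units with SB431542, against 190, 200 and 182 units with DMSO, a log2 difference of 0.03 ± 0.06. For both genes the groups overlapped and the difference was within the spread between arrays. The brighter probe of Gbp6, A_55_P2052380, gave 34.6, 23.8 and 23.7 units with SB431542, against 20.6, 17.2 and 16.6 units with DMSO. These groups did not overlap, SB431542 being higher, and SB431542 replicate 1 lay apart from the other two. The log2 difference was 0.58 ± 0.17, and 0.23 under normexp. The other Gbp6 probe stayed near background throughout.

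The Irg genes of chromosome 11 divided. Irgm1, a regulator needed in mice for resistance to mycobacteria and other vacuolar pathogens, was lower by both probes. Its brighter probe, A_51_P262171, gave 10.3, 14.0 and 12.4 units with SB431542, against 120, 114 and 118 units with DMSO. The DMSO arrays lay close together and the SB431542 arrays near the limit of detection, though all were well above background. The log2 difference was -3.28 ± 0.12, or 9.70-fold lower, and -1.41 under normexp. This probe ranked 9 from the most lowered of the same 33207 probes, from which nothing is read for the reason given for Gbp2. The dimmer probe, A_55_P1981479, gave 2.75, 2.78 and 2.24 units with SB431542, against 24.6, 26.9 and 20.9 units with DMSO. It was not well above background on any SB431542 array and was at least 2.48-fold lower by the same approximate bound. Under normexp its log2 difference was smaller, -0.42.

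Tgtp2, an effector of this family, was lower by its brighter probe, A_55_P2062246, which gave 62.6, 60.5 and 67.4 units with SB431542, against 143, 147 and 123 units with DMSO. The groups did not overlap, and the log2 difference was -1.11 ± 0.09, or 2.17-fold lower. It was -0.63 under normexp. The other probe, A_55_P1989225, gave 8.40, 14.0 and 9.57 units with SB431542, against 12.5, 7.80 and 7.58 units with DMSO. These values overlapped and were well above background on 1 array of each group, so this probe was not tested. Tgtp1 is a near-identical copy of Tgtp2 and probes for one may take up RNA of the other, so which copy a probe measures is uncertain. The probe assigned to Tgtp1 had a log2 difference of 0.45 ± 0.22 and did not pass the test (limma adjusted p = 0.271).

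The other regulators, Irgm2 and Igtp, gave smaller differences. Irgm2, whose protein is found at the Golgi, gave 196, 186 and 168 units with SB431542, against 132, 147 and 151 units with DMSO. These groups did not overlap, SB431542 being higher, and the log2 difference was 0.35 ± 0.09 (0.23 under normexp). Igtp, whose protein sits on the endoplasmic reticulum, gave 316, 331 and 320 units with SB431542, against 361, 334 and 353 units with DMSO. The groups did not overlap by a narrow margin, with a log2 difference of -0.12 ± 0.06. Its probe is printed in 10 spots on each array, and single spots of one array differed with an SD of 0.079 to 0.107 on the log2 scale.

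Set in their order on the chromosomes in GRCm38.p6, genes with and without lower values lay side by side. On chromosome 3 the order is Gbp5, Gbp7, Gbp3, Gbp2b and Gbp2, of which the last 3 are members. Gbp7 gave 2.14, 2.56 and 2.61 units with SB431542, against 10.9, 15.3 and 9.78 units with DMSO, and was well above background on 1 DMSO array, too few to be tested. Gbp5, well above background on 2 arrays of each group, had a log2 difference of 0.44 ± 0.46 (limma adjusted p = 0.587). Around this run the nearest 3 protein-coding genes of other families on each side were taken, and of the 5 measured 0 passed limma's test (adjusted p from 0.327 for Kyat3 to 0.969 for Bmpr1b, with 0 at an unadjusted p under 0.05). On chromosome 11, Irgm1 and Tgtp2 lie in one run with Gm5431 (0.02 ± 0.07), 9930111J21Rik1 (-0.07 ± 0.09) and Ifi47 (-0.03 ± 0.19), none of which passed the test. Igtp and Irgm2 lie side by side in another run, next to Gm12250 (0.04 ± 0.25). Around the other runs, the neighbours measured numbered 3 (chromosome 5), 5 (Irgm1 and Tgtp2) and 5 (Igtp and Irgm2). Of these 1 passed the test, the zinc finger gene Zfp672 beyond Irgm2, which rose by 0.55 ± 0.06 (limma adjusted p = 0.0053). Over all 15645 genes by their brightest probe 14.0% passed. With so few neighbours nothing is read from these counts or from that of chromosome 3.

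**Figure D3:**
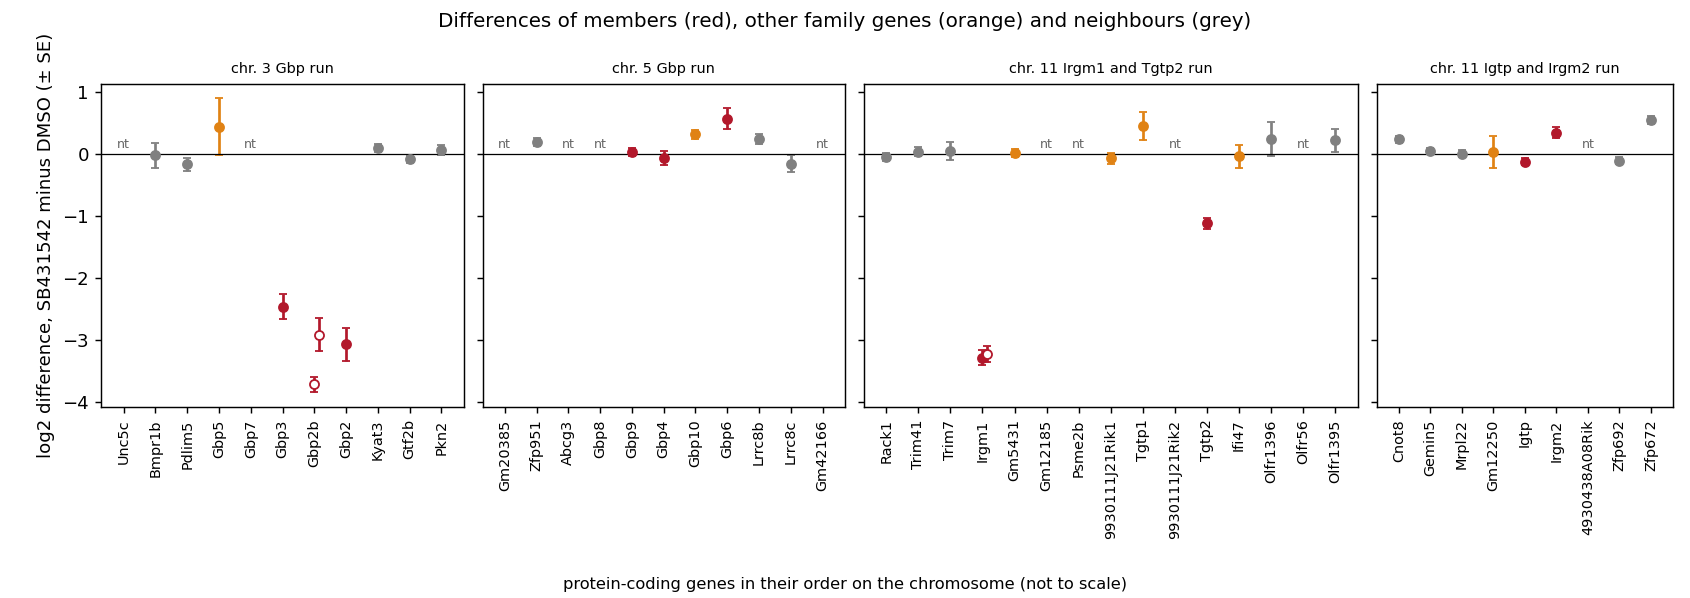
Log2 difference (y axis, SB431542 minus DMSO, ± SE, 3 arrays per group) of member probes (red), other family genes (orange) and neighbours (grey) in their order on the chromosome (x axis, not to scale). Open points were not well above background on any SB431542 array, and nt marks genes not tested. The points of Gbp3, Gbp2b, Gbp2, Irgm1 and Tgtp2 lie between -3.71 and -1.11, those of the other tested genes between -0.16 and 0.58.

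Of a list of 17 other genes, 16 had a probe and 10 were measured. The list covers both families and also Gvin1, a very large GTPase gene that belongs to neither. Of the 10 measured, 1 fell and 0 rose, against 8.12% and 5.86% (14.0% in all) of 15645 genes counted by their brightest probe. The gene that fell was Irgq, a distant relative of the family that is not known to be interferon-induced. Its probe gave 165, 161 and 169 units with SB431542, against 294, 310 and 271 units with DMSO, a log2 difference of -0.82 ± 0.07 (limma adjusted p = 0.0021). Those that did not pass included Gbp10 (0.32 ± 0.08, adjusted p = 0.0573), the effector gene Iigp1 (0.14 ± 0.19), the very large GTPase gene Gvin1 (0.53 ± 0.19) and those named above. The median difference of the 10 measured genes, Gvin1 included, was 0.09, against 0.01 over all 15645 genes. Gbp6 and Gbp10 are close copies whose probes may share signal. Gbp10 passed as higher under normexp (limma adjusted p = 0.0209) and by both stricter choices of probes. These were probes well above background on all 6 arrays (0.0463) and 1 probe a gene (0.0478). In the other alternatives Gbp10 did not pass.

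Genes of interferon gamma signalling were counted too, and their part in the differences of the members was not tested. Of 13, 10 were measured, 4 fell and 0 rose, with a median of -0.10. Over all 15645 genes 8.12% fell and 5.86% rose, shares that also stand beside the counts of the lists that follow. Irf1, a transcription factor that drives Gbp and Irg genes, gave 2789, 2753 and 2872 units with SB431542, against 4748, 4527 and 4443 units with DMSO. It fell by 0.71 ± 0.06 on the log2 scale (limma adjusted p = 0.0018). The receptor gene Ifngr1 gave 645, 660 and 613 units with SB431542, against 1042, 1015 and 998 units with DMSO, and fell by 0.67 ± 0.06 (adjusted p = 0.0022). For both genes every SB431542 array was below every DMSO array. Nlrc5, an activator of major histocompatibility genes, had a difference of -0.85 ± 0.12 (adjusted p = 0.0109) by its brighter probe and -0.06 ± 0.17 by the other, and Irf8 one of -0.62 ± 0.12 (adjusted p = 0.0267). The other receptor chain gene Ifngr2 (0.06 ± 0.07) did not pass. The count was 2 without DMSO replicate 1, where Nlrc5 had an adjusted p of 0.0508. Under normexp Nlrc5 was at -0.20 and lost its call (adjusted p = 0.0804), and Irf8 was at -0.31. Irf8 also lost its call without each other array except SB431542 replicate 2 (adjusted p from 0.0579 to 0.0953).

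Of 9 measured genes of type I interferon signalling, 2 rose and 0 fell, with a median of 0.03. The RNA sensor gene Ddx58 rose by 0.46 ± 0.06 (limma adjusted p = 0.0078). Irf9 had a difference of 0.26 ± 0.06 (adjusted p = 0.0463), which did not pass when any 1 array was left out (0.0527 to 0.167). Nor did Irf9 pass under normexp (0.0606), quantile normalization (0.0558), the authors' log2 table (0.0541), no filter on dim probes (0.108) or a replicate block (0.118). It did pass by both stricter choices of probes (0.0382 and 0.0362) and with an intensity trend (0.0155). Of 25 measured interferon response genes, 5 fell and 2 rose, with a median of -0.07. Oasl2, a relative of the antiviral oligoadenylate synthetases, gave 13.3, 13.8 and 10.4 units with SB431542, against 81.8, 59.4 and 66.1 units with DMSO. It fell by 2.46 ± 0.16 on the log2 scale (adjusted p = 0.001), and by 0.91 under normexp. The nucleic acid sensor gene Zbp1 fell by 1.47 ± 0.10 (adjusted p = 0.0012), with -1.39 ± 0.34 by its dimmer probe and -0.96 under normexp, and Ifi35 by 0.71 ± 0.06 (adjusted p = 0.0023). The synthetase gene Oas2 rose by 0.43 ± 0.06 (adjusted p = 0.0081). Of the response genes 3 fell and 1 rose without DMSO replicate 1, 2 or 3, and 4 fell and 4 rose without SB431542 replicate 3.

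Of 13 measured antigen presentation genes, which interferon gamma also induces, 7 fell and 1 rose, with a median of -0.32. Over all 15645 genes 8.12% fell and 5.86% rose. The gene that rose was B2m, by 0.39 ± 0.05 (limma adjusted p = 0.0103), and Tap1 (-0.01 ± 0.10) and H2-D1 (-0.05 ± 0.10) did not pass. The count that fell was 6 under normexp and 5 without DMSO replicate 2, and without DMSO replicate 1 or 2 none rose (0). Psmb10, a subunit of the immunoproteasome, fell by 0.68 ± 0.07 (limma adjusted p = 0.0036), and Psmb9 by 0.47 ± 0.06 (adjusted p = 0.0068). Tapbp, which loads peptides, fell by 0.67 ± 0.07 (adjusted p = 0.0045), and the class I heavy chain gene H2-K1 by 0.56 ± 0.07 (adjusted p = 0.0058). Outside the naming rule, and chosen after its values were seen, the peptide transporter gene Tap2 gave 76.9, 49.6 and 58.1 units with SB431542, against 297, 191 and 162 units with DMSO. Its difference was -1.79 ± 0.27 (adjusted p = 0.0128, and 0.0501 without DMSO replicate 2), and -1.19 under normexp. Erap1, a peptide-trimming protease gene chosen in the same way, was dim on all SB431542 arrays and at least 1.63-fold lower by the same approximate bound. It passed the filter only through the DMSO arrays, so lower was the only call it could get, and under normexp that call was lost (-0.21, adjusted p = 0.0903).

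Genes that act with these GTPases on vacuoles and in cell death were also counted, beside the 14.0% of all genes that passed the test. Of 13 measured autophagy and ubiquitin genes that direct the GTPases to vacuoles in mouse cells, 2 passed the test and both were lower, Gabarapl1 (-0.26 ± 0.06, limma adjusted p = 0.0427) and Atg7 (-0.29 ± 0.07, adjusted p = 0.0469). Neither passed when any 1 array was left out. Of 6 measured inflammasome genes, 1 fell and 0 rose, namely Nlrc4 by 1.15 ± 0.11 (adjusted p = 0.0035, and -0.69 under normexp). Gsdmd, the pore-forming gasdermin gene, named after its values were seen, had a difference of 0.27 ± 0.06 (adjusted p = 0.0522) and passed as higher under normexp (0.0345), an intensity trend (0.0266), both stricter choices of probes (0.0431 and 0.0416) and without SB431542 replicate 3 (0.0317), but not without any other array (0.122 to 0.167). The medians of these lists were 0.02 and -0.05.

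**Figure D4:**
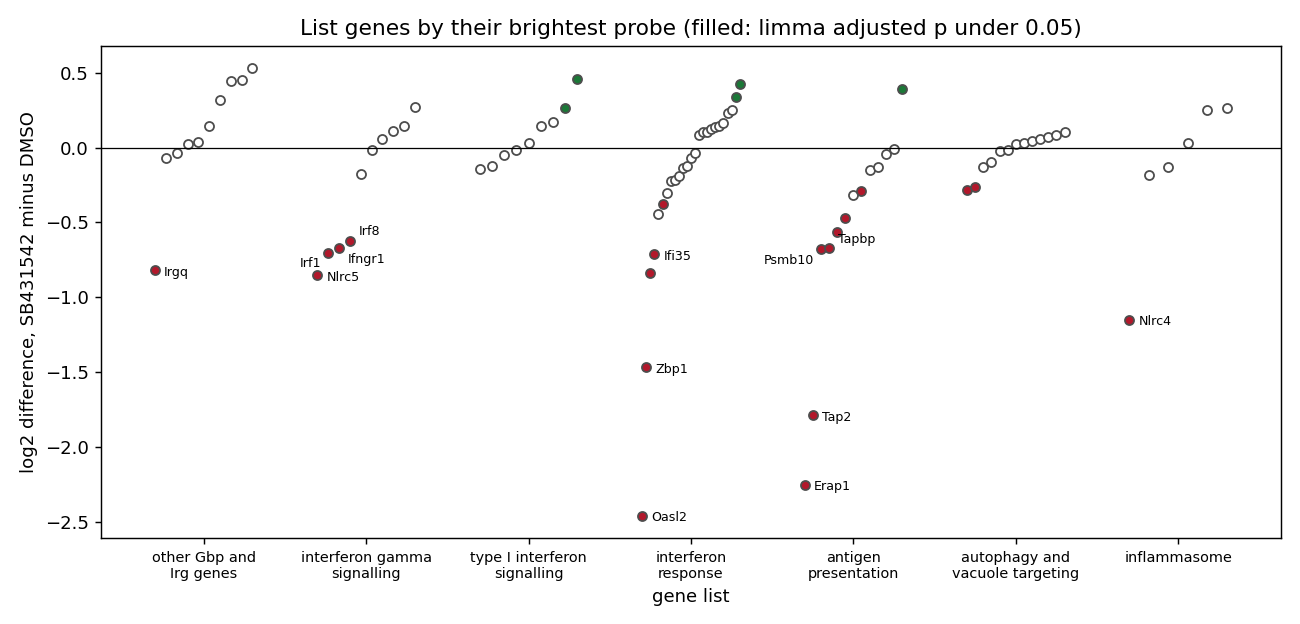
Log2 difference (y axis, SB431542 minus DMSO) of each measured gene of 7 lists (x axis) by its brightest probe, with genes past limma's adjusted threshold filled in red (lower) or green (higher). The lowest are Oasl2 at -2.46 and Tap2 at -1.79 among measured genes and Erap1, which was dim on all SB431542 arrays, and type I interferon signalling genes between -0.14 and 0.46.

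Markers of other cell types were set beside these values. Of 8 macrophage markers 4 were measured and 0 passed limma's test, with 1 at an unadjusted p under 0.05. The smallest adjusted p values were those of Adgre1 (-0.57 ± 0.20, adjusted p = 0.143) and Csf1r (0.23 ± 0.11, adjusted p = 0.262). Their summed signal ran from 7213 to 8108 units with SB431542 and from 7236 to 7551 with DMSO, and Lyz2 was near background throughout. Of 9 fibroblast markers 7 were measured, 3 fell (Col1a2 by 1.05 ± 0.13, Pdgfrb by 0.44 ± 0.08, and Dcn, which was dim on all SB431542 arrays and could only be called lower) and 1 rose (Pdgfra by 0.34 ± 0.05). Their summed signal ran from 1027 to 1134 units with SB431542 and from 1262 to 1348 with DMSO, and Lum and Postn were near background throughout. Of 6 endothelial markers 4 were measured, and Pecam1 fell by 0.27 ± 0.05. Their summed signal ran from 6264 to 7815 units with SB431542 and from 5729 to 6301 with DMSO, and Cdh5 and Emcn were near background throughout. The part of the fibroblast and endothelial markers in the differences of the members was not tested.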

How the data were processed

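Total RNA of 6 samples was measured on 6 one-colour Agilent arrays, in groups taken from the sample titles. The deposited intensity values were background-subtracted and detrended within each array by Agilent Feature Extraction 10.7, per the file headers and the submitters' processing notes. Flags for spots are deposited as a score of 0 or 1, per the file headers. A table of log2 values deposited by the authors, with a median of 5.18 in every column, served as an alternative. Its columns run in the direction of their own arrays (correlation 0.999878 or above), and their normalization is not stated in the sources used here.

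Each array's 75th percentile was taken from its log2 processed signal, with outlier spots left out (81 of 55681 probes dropped) and spots of a probe averaged. No spot was saturated (0). Accessions were matched to a RefSeq table of GRCm38.p6, which named 27235 probes and left 28446 unnamed. The array grid names mm9, so only names and gene order were taken from that table. Promoter windows come from RefSeq with the same build. The 36183 probes flagged as clearly above background on 3 or more of 6 arrays were tested with limma 3.58.1 (lmFit, eBayes, R 4.3.3, Python 3.11.15), two-sided, with Benjamini-Hochberg adjustment over them and a threshold of 0.05. Steps were tested on simulated data. Precision is limited by the number of arrays.

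The members and lists were chosen with earlier results of these data known. List genes were counted by their brightest probe. Of each list up to 4 genes with the smallest adjusted p past the threshold are named (otherwise up to 2), with every member, every measured gene of both families and, in any case, Irf1, Ifngr1, Ifngr2 and Lefty1; 1 further gene of this rule is not reported here. Pou5f1, Sox2 and Nanog, Tap2, Erap1, B2m, Tap1, H2-D1, Gsdmd and marker genes, and genes beside the runs are named in addition. Alternatives were normexp (on median signals, offset 50), quantile normalization, the authors' log2 table, other filters, 1 probe a gene, an intensity trend, slide, scan or replicate number as a block, and each array left out. Protein sequences were not used here.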

Additional observations from a re-analysis of the deposited data

How the results depend on the processing

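The 12 tested member probes kept the sign of their difference in every alternative except those of Gbp4 (-0.13 to 0.02) and Gbp9 (-0.004 to 0.07). Normexp was the only alternative that moved a member by more than its spread, with Gbp2b at -0.60 and -0.76 by its probes and the dimmer Irgm1 probe at -0.42. Under it 2 member probes, against 7, were at least 2-fold lower without overlap. With probes well above background on all 6 arrays these were 3, and those lower without overlap 4 against 8, since fewer probes are tested. Leaving out any 1 array left 7 and 8, with 2 higher.

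All probes past the threshold numbered 3908 (1559 higher, 2349 lower). They were 2257 (803 higher, 1454 lower) with no filter on dim probes, and 1357 (457 and 900) at an adjusted p under 0.01. Leaving out 1 array gave 1594 to 3304 (560 to 1350 higher, 1034 to 1954 lower). Genes of the 7 lists past the threshold numbered 25 (5 higher, 20 lower). They were 14 (2 higher, 12 lower) at the stricter threshold, 15 to 23 when leaving out 1 array (2 to 7 higher, 13 to 17 lower), and the higher ones 8 with an intensity trend.

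Replicate numbers showed no clear sign of pairing the samples, though 3 arrays per group are too few to exclude it. Same-numbered arrays deviated from their group means with correlations of 0.000645, 0.0662 and -0.0444, and not every array correlated best with its own number. With the replicate block, 1626 probes passed (518 higher, 1108 lower) and 15 list genes (0 higher). Slide and scan as a block give the fit without SB431542 replicate 3, with 3304 probes. The scanner files hold median rather than mean spot signals, so normexp used those. Depth of signal limits Gbp2b and the dimmer Irgm1 probe, which have approximate bounds only, and Gbp3, which 1 SB431542 array measured above background.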
